A study of Mus musculus with 4 samples.

Results

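The genes described here are 42 genes of the dividing cell, from the cyclins and helicase subunits of S phase to the kinases, motors and ubiquitin ligase partners of mitosis, read in mouse hearts on 4 microarrays. Members were chosen by name. All 80 probes whose gene name in the scanner files was one of the 42 symbols were taken, and all 42 symbols were found among the 37074 gene names of the array. The study asked how a high dose of the alkylating drug cyclophosphamide (CY) acts on the heart, whether its breakdown product acrolein does the same, and whether the thiol N-acetylcysteine (NAC) changes the response. Female C57BL/6J mice, 6 weeks old by the labels, were injected intraperitoneally once a day for 2 days and the heart was taken 3 h after the last dose. The control mice had normal saline (NS), the CY mice had 400 mg/kg CY, the acrolein mice had 5 mg/kg acrolein, and the NAC + CY mice had 200 mg/kg NAC 2 h before 400 mg/kg CY. No allele or transgene is named for any group. The design text speaks of 3 independent studies, and whether the RNA of several hearts was pooled is not given in the sources used here.

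Each condition was measured on 1 single-colour Agilent array, so the differences below were compared with no replicate and carry no p-value. RNA came from heart tissue that holds many cell types, and in such bulk RNA fewer cells of a type and less RNA per cell cannot be told apart. All 8 genes fixed as markers of ventricular muscle, such as Myh6 and Tnnt2, were well above background on all 4 arrays. Between 47.13% and 50.02% of the 56605 probes were well above background on an array.

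Cells that divide pass through G1, copy their DNA in S phase, and segregate it in mitosis after a gap called G2. Genes for DNA copying are switched on by E2F transcription factors at the entry to S phase, and genes for mitosis are switched on later by the B-Myb, MuvB and FoxM1 proteins. The tumour suppressor p53 acts through the inhibitor p21 to keep both waves off after DNA damage. Muscle cells of the adult heart rarely divide, so messages of mitosis in heart tissue are scarce and come largely from endothelial cells, fibroblasts and blood cells. CY is turned into a mustard that crosslinks DNA and is most toxic to cells that are dividing.

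The promoters of such genes carry short sequence elements that mark the wave to which a gene belongs. RefSeq windows on mouse assembly GRCm38.p6, from 250 bases before to 50 bases after the start, were found for 33 of the 42 members. The cell cycle genes homology region (CHR, searched as TTTGAA or TTCGAA on both strands) was present in 18 of the 33 windows, against 21.7% of the windows of all 27025 genes in the table. It was present in 16 of the 20 members of the G2 and mitosis groups and in 2 of the 13 members of the G1 and S phase groups. The CCAAT box, searched as CCAAT on both strands, was present in 25 of the 33, against 41.1% of all genes. The E2F site, searched as TTTCCCGC, TTTGGCGC, TTTCGCGC or TTTGCCGC on both strands, was present in 5 of the 33, against 2.60% of all genes. These 5 were Cdk1, Mcm3, Mcm5, Mcm6 and Mcm7. The letters of none of the 3 elements contain those of another. A match is a description of the letters and not a site shown to be bound in these hearts.

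The 6 members below are shown because they carry these elements close to the start and recur in the results. Each line gives the 150 bases before the start, 5′ to 3′ on the strand of the gene, and capitals mark letters that belong to a match. The first 4 genes belong to G2 and mitosis and the last 2 to S phase.
Ube2c: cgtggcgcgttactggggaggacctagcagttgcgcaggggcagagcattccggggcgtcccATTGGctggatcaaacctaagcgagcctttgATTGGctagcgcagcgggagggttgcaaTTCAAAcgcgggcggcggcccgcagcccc
Cdk1: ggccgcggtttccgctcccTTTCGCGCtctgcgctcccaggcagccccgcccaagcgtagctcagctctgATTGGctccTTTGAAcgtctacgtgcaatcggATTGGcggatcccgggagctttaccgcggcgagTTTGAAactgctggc
Top2a: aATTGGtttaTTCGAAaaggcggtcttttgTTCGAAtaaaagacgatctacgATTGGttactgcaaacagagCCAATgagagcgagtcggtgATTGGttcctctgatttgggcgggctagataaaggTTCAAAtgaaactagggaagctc
Mki67: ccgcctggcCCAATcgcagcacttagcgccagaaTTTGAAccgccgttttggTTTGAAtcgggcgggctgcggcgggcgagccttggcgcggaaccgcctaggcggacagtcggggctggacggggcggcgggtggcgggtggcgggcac
Mcm6: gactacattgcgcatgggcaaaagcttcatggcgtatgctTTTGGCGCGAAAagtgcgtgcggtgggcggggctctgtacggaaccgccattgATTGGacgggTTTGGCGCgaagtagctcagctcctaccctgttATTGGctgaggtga
Pcna: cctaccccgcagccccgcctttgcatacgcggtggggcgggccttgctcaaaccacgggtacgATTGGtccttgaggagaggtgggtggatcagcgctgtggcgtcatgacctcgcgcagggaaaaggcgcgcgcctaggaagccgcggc
The stretches lie at chr2:164769779-164769928 on the plus strand for Ube2c, chr10:69352913-69353062 on the minus strand for Cdk1, chr11:99024190-99024339 on the minus strand for Top2a, chr7:135716380-135716529 on the minus strand for Mki67, chr1:128359706-128359855 on the minus strand for Mcm6 and chr2:132253181-132253330 on the minus strand for Pcna. Ube2c held 2 CCAAT boxes and 1 CHR within the 150 bases, the CHR beginning at position -29 from the start. Cdk1 held 2 CCAAT boxes, 2 CHR matches and 1 E2F site, and Top2a held 4 CCAAT boxes and 3 CHR matches. Mki67 held 1 CCAAT box and 2 CHR matches. Mcm6 held 3 E2F matches, of which 2 overlap on opposite strands, with 2 CCAAT boxes and no CHR. Pcna held 1 CCAAT box and neither of the other elements in these letters.

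Signals below are quantile-normalised fluorescence in arbitrary units, and a log2 ratio compares 1 array with 1 other. A probe was present (P flag) on an array when its spot was significant, well above background, unsaturated and free of outlier flags. Of the 42 members, 26 were present on all 4 arrays by their brightest flagged probe, 6 on some arrays, and 10 on none. The 10 were Cdk1, Ccnb1, Ccne2, Bub1, Bub1b, Aurkb, Kif11, Tpx2, Chek1 and Foxm1, of which most serve G2 and mitosis. Their signals give bounds only, and they entered no count of calls. The scanner software gives each spot an error, which for the log2 ratio of a member present in the comparison of CY with NS ran from 0.20 to 0.71 with a median of 0.22. That error covers the spot alone, not the animal or the hybridisation. Repeated spots of one probe on one array had a median SD of 0.044 to 0.049 on the log2 scale.

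**Figure D1:**
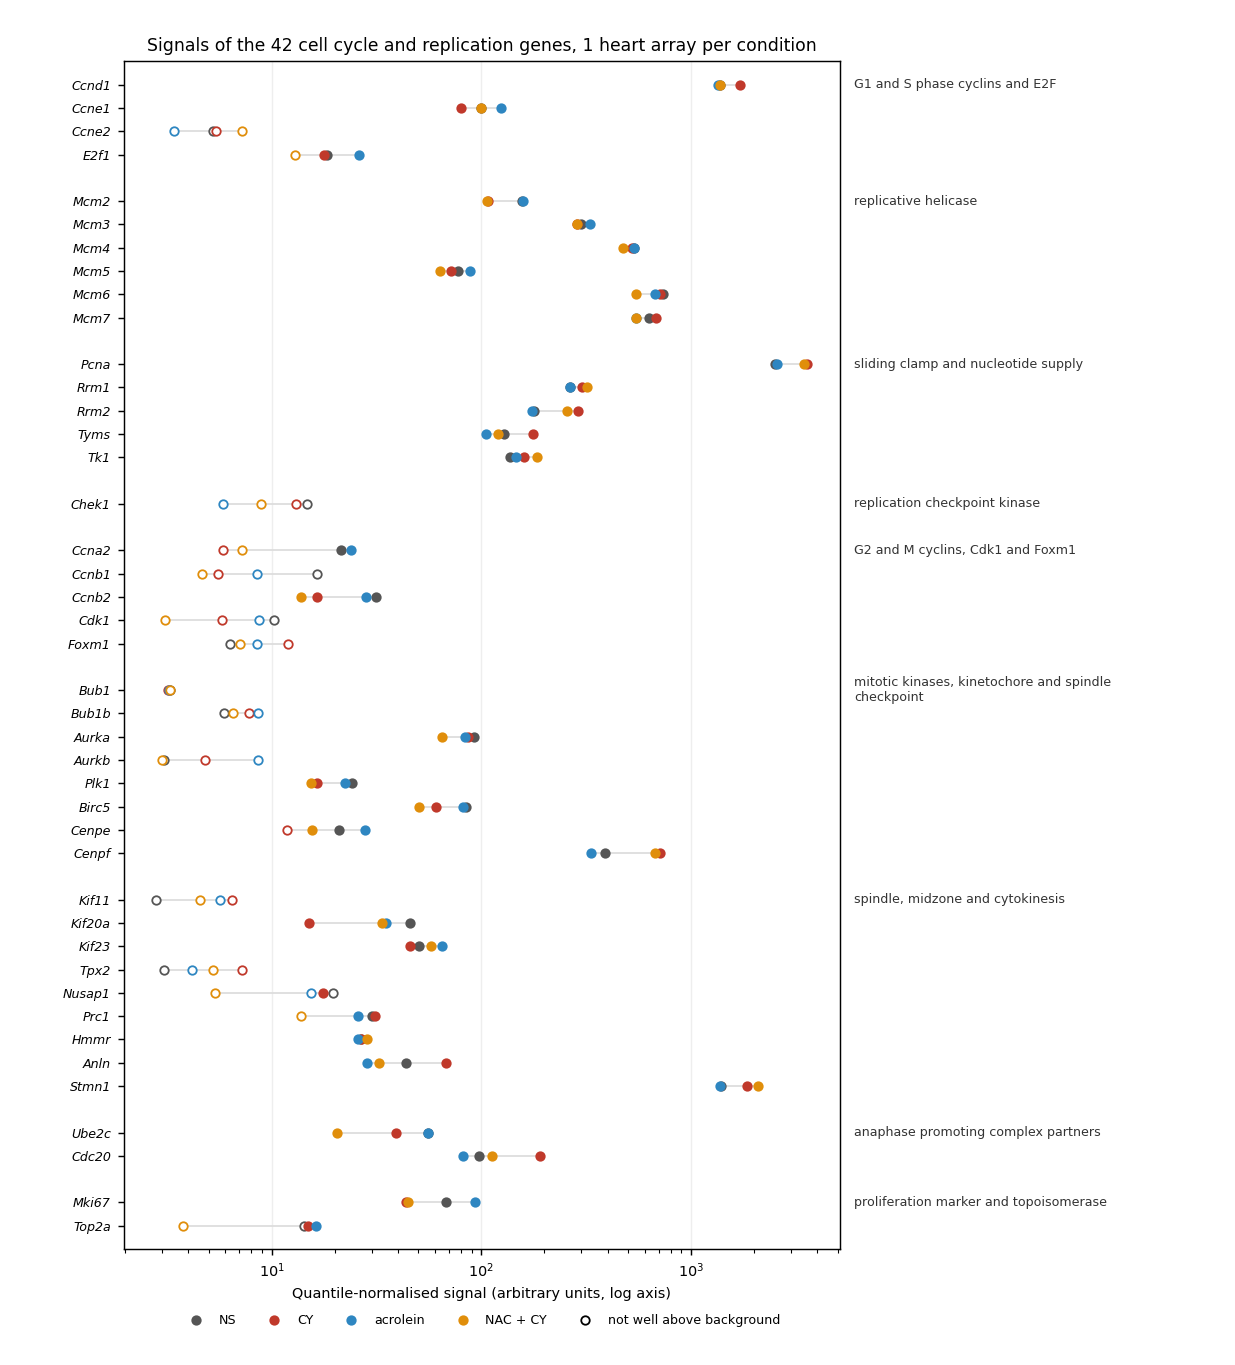
Quantile-normalised signal (horizontal log axis, arbitrary units) of the 42 members by role, with 1 point for each of the 4 arrays and open points where the spot was not well above background. Ccna2, Ccnb2, Plk1, Birc5, Mki67 and Mcm2 have both CY-dosed arrays to the left of the other 2, Pcna, Rrm2, Cenpf and Stmn1 have them to the right, and the open points fall mostly in the G2, mitosis and spindle groups.

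A gene was called higher where its ratio reached 1.5 and its Z-score 2, and lower where the ratio was 0.66 or below and the Z-score -2 or below. This Z-score is the distance of a log2 ratio from the mean of the 200 probes nearest in signal, in units of their SD. Few members were called. Of the 32 members tested after CY, none was called higher and 1, Kif20a, was called lower, where 3.38% of all tested genes were called higher and 2.81% lower. Of the 31 tested after acrolein none was called in either direction, where 1.08% of all tested genes were called higher and 1.29% lower. Of the 30 tested after NAC + CY none was called higher and 1, Ube2c, was called lower than in NS, where 2.68% of all tested genes were called higher and 2.59% lower. In NAC + CY against CY, 1 of 31, Kif20a again, was called higher and none lower, where 1.54% of all tested genes were called higher and 2.82% lower. The first 3 comparisons share the NS array.

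By the ratio criterion alone, without the Z-score, 9 of the 32 tested members passed after CY, where 22.4% of all tested genes passed. Only 1 of 31 passed after acrolein, where 6.84% of all tested genes passed. After NAC + CY 9 of 30 passed against NS, where 19.3% of all tested genes passed, and 7 of 31 passed against CY, where 13.7% passed. With so few members these counts are given as a description and not as a difference from the other genes. The median log2 ratio of all 42 members was -0.03 after CY, -0.01 after acrolein and -0.19 after NAC + CY against NS, and -0.25 for NAC + CY against CY. The median over all genes of the array in the same order was -0.01, -0.01, -0.01 and 0.01. Both NAC + CY medians hold the dim members. Over the tested members alone, the 4 medians in the same order were -0.04, -0.01, -0.25 and -0.17. With every signal below 16.5, the highest of the 4 background limits, raised to that floor, all 4 medians of the 42 members were 0. By construction, such a floor gives a log2 ratio of 0 to a member below it on both arrays.

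**Figure D2:**
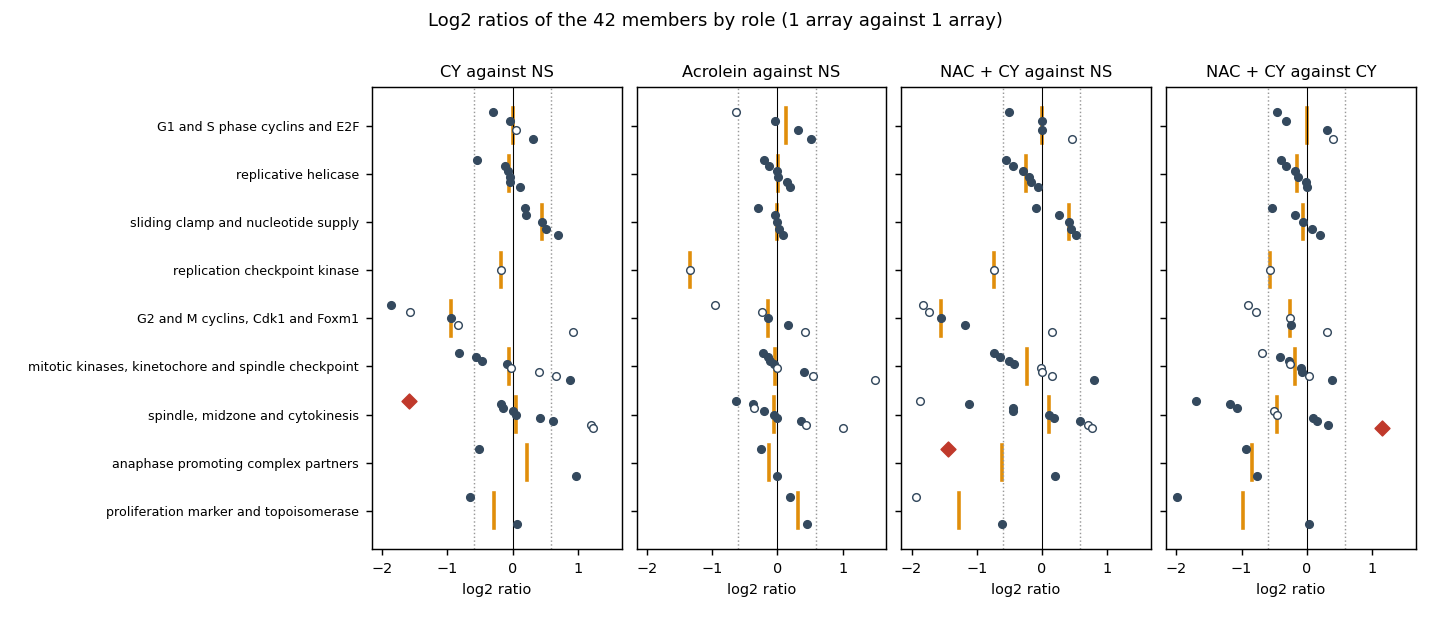
Log2 ratios of the 42 members (horizontal axis) by role in the 4 comparisons, with filled points for members tested, open points for members present on neither array, red diamonds for called members, orange bars for role medians and dotted lines at the ratio criteria. The members of nucleotide supply lie above 0 after CY. In the G2 and M group, for each CY-dosed heart against NS, the cyclins and Cdk1 lie below 0 and Foxm1 above it. Ccnb1, Cdk1 and Foxm1 are open points there.

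By their brightest probes, genes of the clamp and of nucleotide supply read higher in both hearts dosed with CY than in NS, Tyms in NAC + CY excepted, and none reached the criteria. Pcna, the sliding clamp that holds DNA polymerase on its template, read 2527 in NS, 3584 in CY, 2574 in acrolein and 3441 in NAC + CY. Both CY-dosed hearts stood above both others. Its log2 ratio to NS was 0.50 in CY (spot error 0.20, Z-score 1.37), 0.03 in acrolein and 0.45 in NAC + CY, and its probe lies at chr2:132075420-132075557 on mm9. Rrm2, the S phase subunit of ribonucleotide reductase, which makes deoxynucleotides, read 178 in NS, 289 in CY, 174 in acrolein and 255 in NAC + CY. The log2 ratio of Rrm2 after CY was 0.70 (spot error 0.21, Z-score 1.12). Both CY-dosed hearts again stood above both others. Rrm1, its partner subunit, had log2 ratios of 0.18 in CY and 0.26 in NAC + CY, and the thymidine kinase Tk1 had 0.21 and 0.41. Both ratios after CY lay within or at the spot error of 0.21, and the second present probe of Tk1 read -0.07 in CY and 0.25 in NAC + CY. Tyms, thymidylate synthase, read 129, 175, 105 and 121 in the order NS, CY, acrolein and NAC + CY, so that its NAC + CY signal did not stay with that of CY. The median of the 5 genes was 0.44 after CY, -0.01 after acrolein and 0.41 after NAC + CY.

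The replicative helicase, the ring of Mcm2 to Mcm7 that unwinds DNA at the fork, did not read higher with them. Mcm2 read 156.8 in NS, 107.3 in CY, 158.7 in acrolein and 106.95 in NAC + CY. Both CY-dosed hearts were lower than both others, with log2 ratios of -0.55 (spot error 0.21) and Z-scores of -1.01 in CY and -0.73 in NAC + CY. The other 5 subunits had log2 ratios from -0.11 to 0.11 after CY and from -0.44 to -0.07 after NAC + CY. The median of the 6 subunits was -0.06 after CY, 0.01 after acrolein and -0.25 after NAC + CY. Of the 6 subunits, 5 were lower and 1 was higher in CY than in NS, and all 6 were lower in NAC + CY than in NS. The 4 present probes of Mcm3 had log2 ratios between -0.07 and 0.16 after CY and between -0.57 and -0.07 after NAC + CY, a spread as wide as most of these differences.

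Ccnd1 encodes cyclin D1, which starts the passage through G1. It read 1374 in NS, 1708 in CY, 1339 in acrolein and 1374 in NAC + CY, so that CY stood above the other 3 arrays at a log2 ratio of 0.31 (spot error 0.20, Z-score 0.75). Ccne1, cyclin E1 of the entry to S phase, read 99.5, 80.4, 124 and 99.5 in the same order. E2f1, an activator of the S phase genes, was present on 3 arrays at 18.4, 17.8 and 26.2 in NS, CY and acrolein and was not well above background at 12.97 in NAC + CY. None of these 3 was called in any comparison. Ccne2 and the checkpoint kinase Chek1 were present on no array, with signals of at most 7.18 and 14.8.

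The cyclins of G2 and mitosis were low in both CY-dosed hearts, close to the limit of detection. Ccna2, cyclin A2, read 21.3 in NS and 23.8 in acrolein and was not well above background at 5.83 in CY and 7.25 in NAC + CY. As a bound before spot error, Ccna2 was at least 1.66-fold lower in CY and at least 1.70-fold lower in NAC + CY than in NS. Its log2 ratios had spot errors of 0.71 and 0.60 and Z-scores of -1.55 and -1.60. Ccnb2, a cyclin B that partners Cdk1, was present on all 4 arrays at 31.4 in NS, 16.4 in CY, 28.3 in acrolein and 13.8 in NAC + CY. Its log2 ratio was -0.94 in CY (spot error 0.34, Z-score -1.02) and -1.18 in NAC + CY (spot error 0.37, Z-score -1.12).

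Cdk1, the kinase that drives entry to mitosis, read 10.3 in NS, 5.76 in CY, 8.74 in acrolein and 3.10 in NAC + CY, none of them well above background. Ccnb1, cyclin B1, read 16.5, 5.57, 8.52 and 4.65 in that order, again with no array well above background. No fold is given for either gene, since both sides of each ratio were dim. Foxm1, the transcription factor of the mitotic wave, was dim on all arrays with its highest signal, 12.0, in CY. The Cdk1 promoter shown above has the CCAAT and CHR pair, as the windows of 15 of the 20 matched G2 and mitosis members do, against 9.65% of all genes.

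Mki67 encodes Ki-67, the nuclear protein used to count cycling cells. It read 68.0 in NS, 43.5 in CY, 92.8 in acrolein and 44.5 in NAC + CY. Both CY-dosed hearts were below both others and within 0.03 log2 units of each other, and acrolein was the highest. The log2 ratio to NS was -0.65 in CY (spot error 0.24, Z-score -0.95), 0.45 in acrolein (spot error 0.22, Z-score 1.65) and -0.61 in NAC + CY, and its probe lies at chr7:142881591-142881650 on mm9. Top2a, the topoisomerase that untangles sister chromosomes, read 14.2 in NS, 14.9 in CY, 16.3 in acrolein and 3.75 in NAC + CY, and was well above background in CY and acrolein only. Since Top2a was dim in NS, whether it shared the CY reading of Mki67 cannot be told (log2 ratio 0.06, spot error 0.48). As a bound before spot error, Top2a was at least 1.19-fold lower in NAC + CY than in CY. The spot error of that log2 ratio was 1.16.

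Among the kinases and the kinetochore, Plk1, Birc5 and Cenpe read lower in both CY-dosed hearts than in NS and Cenpf higher, and none was called. Plk1, a kinase of mitotic entry, read 24.2 in NS, 16.4 in CY, 22.4 in acrolein and 15.4 in NAC + CY, with log2 ratios of -0.55 in CY (spot error 0.38, Z-score -0.82) and -0.64 in NAC + CY (Z-score -0.58). Birc5, survivin of the chromosomal passenger complex, read 84.4, 60.8, 81.4 and 50.5, at -0.47 in CY (spot error 0.22, Z-score -0.79) and -0.74 in NAC + CY (Z-score -1.38). Cenpe, a kinetochore motor, was at least 1.63-fold lower in CY than in NS (Z-score -0.79) and had a log2 ratio of -0.44 in NAC + CY, close to its spot error of 0.43. Cenpf, a large kinetochore protein, read 389 in NS, 712 in CY, 335 in acrolein and 677 in NAC + CY. Its log2 ratio was 0.87 in CY (spot error 0.21, Z-score 1.59) and 0.80 in NAC + CY (Z-score 1.94), the highest Z-score of any member against NS, and neither reached the criterion. Aurka, the spindle pole kinase Aurora A, ranged from 65.0 to 91.9 with its lowest signal in NAC + CY. Aurkb, Bub1 and Bub1b, of the passenger complex and the spindle checkpoint, were present on no array.

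Kif20a, a motor of the spindle midzone that cytokinesis requires, was the member called in 2 comparisons. It read 45.7 in NS, 15.1 in CY, 35.1 in acrolein and 33.5 in NAC + CY. The CY heart was apart from the other 3, and NAC + CY lay near acrolein. The log2 ratio was -1.59 in CY against NS (spot error 0.37, Z-score -2.30) and 1.15 in NAC + CY against CY (spot error 0.37, Z-score 2.09), while NAC + CY against NS gave -0.45 (Z-score -0.62). Both calls rest on the 1 CY spot, which lay close to the lowest signal well above background on that array, 12.8. Neither call was kept under the normexp background correction, where the log2 ratios were -0.50 and 0.28. That correction adds an offset of 50, which by construction shrinks the ratios of signals this dim. The call against CY was also lost with 75th percentile scaling, with a floor on each array and with a window of 500 probes.

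The rest of the spindle and cytokinesis group did not follow Kif20a. Prc1, the midzone bundling protein, read 30.0, 31.1 and 25.9 in NS, CY and acrolein and was at least 2.17-fold lower in NAC + CY than in NS. Anln, anillin of the contractile ring, read 43.9 in NS, 67.8 in CY, 28.4 in acrolein and 32.4 in NAC + CY. Hmmr stayed between 25.7 and 28.5, and Kif23, a midzone motor, between 45.8 and 65.0. Stmn1, stathmin, which loosens microtubules, read 1383 in NS, 1855 in CY, 1376 in acrolein and 2076 in NAC + CY. Nusap1 was well above background in CY only, and Kif11 and Tpx2 on no array.

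Ube2c and Cdc20 both serve the anaphase promoting complex, the ubiquitin ligase that ends mitosis, and their readings went opposite ways after CY. Ube2c, the ubiquitin-conjugating enzyme, read 55.5 in NS, 39.0 in CY, 55.4 in acrolein and 20.4 in NAC + CY. NS and acrolein were alike, CY lay below them and NAC + CY was the lowest. The log2 ratio of NAC + CY to NS was -1.44 (spot error 0.29, Z-score -2.02), a 2.71-fold lower signal that only just met the criterion, and that of CY to NS was -0.51 (Z-score -0.96). The call was lost with normexp, at -0.52, and with windows of 100 and 500 probes. The normexp offset shrinks ratios at these signals too. The probe lies at chr2:164598016-164598075 on mm9. Cdc20, the activator of the complex, read 97.5 in NS, 190 in CY, 81.6 in acrolein and 112 in NAC + CY, with log2 ratios of 0.96 in CY (spot error 0.21, Z-score 1.47) and -0.76 in NAC + CY against CY (Z-score -1.89). Its second present probe gave 0.83 and -0.35 for the same comparisons, and the probes differed in sign for acrolein, at -0.26 and 0.37.

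**Figure D3:**
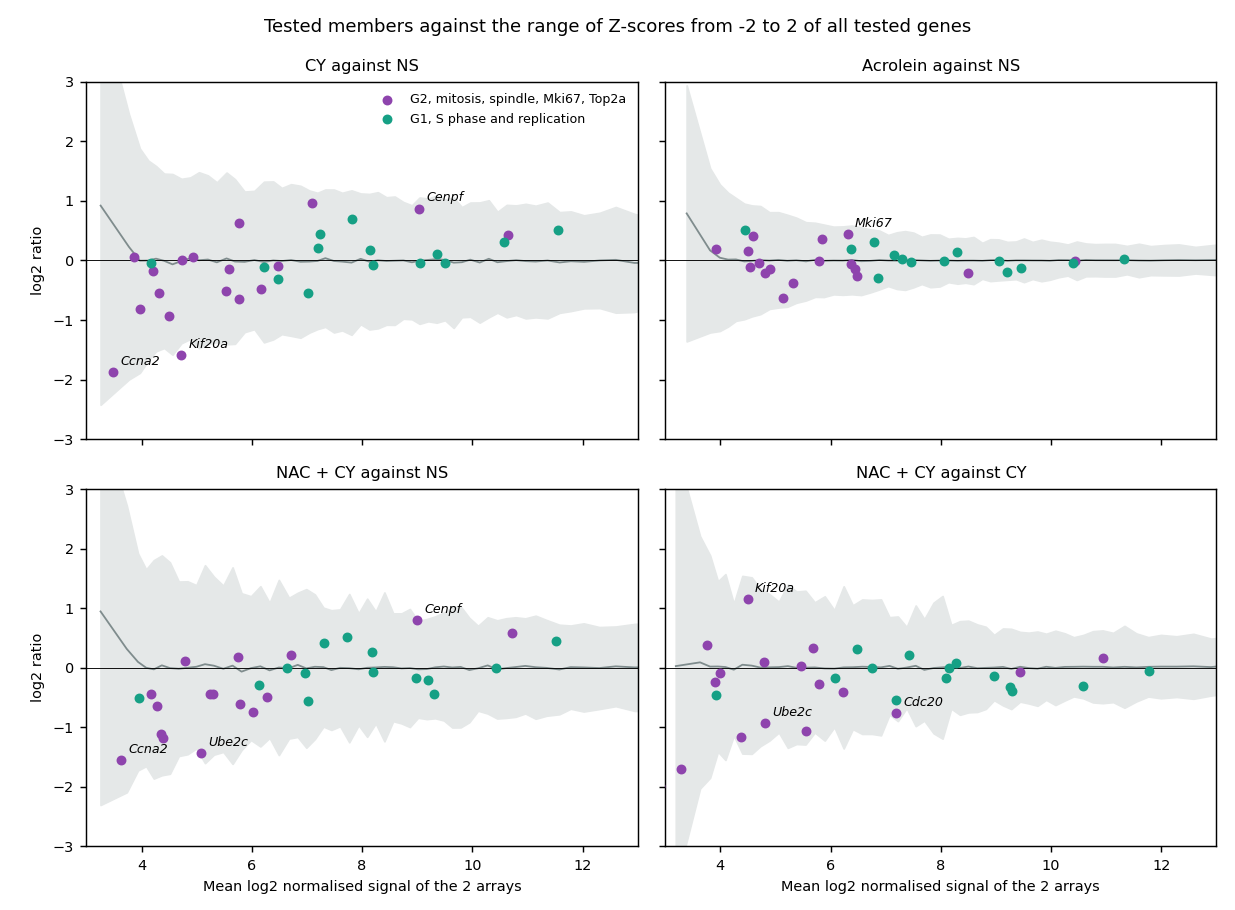
Log2 ratio against mean log2 signal of the members tested in each comparison, with the grey band covering Z-scores from -2 to 2 over all tested genes and the grey line their mean. Only Kif20a in CY against NS and in NAC + CY against CY, and Ube2c in NAC + CY against NS, reach the edge of the band and the ratio criterion, and the band is narrowest for acrolein.

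The 2 CY-dosed arrays were also set against the 2 without CY, a description chosen after the values were seen, in which the 2 arrays of a side are different treatments and not replicates. Of the 32 members present on at least 1 array, 8 (25.0%) were higher in both CY-dosed hearts than in both others, where 27.9% of all genes so present were, and 13 (40.6%) were lower in both, where 31.9% of all genes were. The 8 were Pcna, Rrm1, Rrm2, Tk1, Stmn1, Cenpf, Cdc20 and Hmmr, the last by 0.01 log2 units. The 13 were Mki67, Ccna2, Ccnb2, Plk1, Birc5, Cenpe, Kif20a, Ube2c, E2f1 and the helicase subunits Mcm2, Mcm3, Mcm4 and Mcm5. By role, 4 of the 5 clamp and nucleotide genes were higher in both and none lower, while 4 of the 6 helicase subunits were lower in both and none higher. These tallies rest on 1 probe per gene and include gaps as small as -0.03 log2 units for Mcm4 and -0.07 for Mcm3, and other present probes of Tk1 and Mcm3 had the opposite sign in CY against NS. The shares for all genes show that a gap of this kind is common on these arrays.

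The acrolein heart read like the saline heart for most members. Of the 31 members tested, only Anln passed the ratio criterion, at a log2 ratio of -0.63 with a Z-score of -1.45, and the highest Z-score was that of Mki67. The spread of all genes was also narrowest here, with a median window SD of 0.27 at the signals of the tested members, against 0.64 for CY and 0.60 for NAC + CY against NS. In NAC + CY against CY, 29 of the 42 members had a lower signal and 13 a higher one, where 17186 of 37074 gene names were lower. Of the members tested in that comparison 21 of 31 were lower, against 9443 of 20083 genes. The members that passed the ratio criterion on the lower side were Top2a, Nusap1, Prc1, Ube2c, Cdc20 and Anln, and that on the higher side was Kif20a. Top2a and Nusap1 were dim in NAC + CY, and their bounds of 1.19-fold and 1.40-fold fall short of the criterion.

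The related lists were written from general knowledge with the earlier results known. The list of inhibitors and arrest genes held the highest Z-score against NS in each CY-dosed heart. The largest log2 ratio there lay in the list of further mitosis genes, described below. Cdkn1a encodes p21, the inhibitor of cyclin-dependent kinases that p53 induces. It read 976 in NS, 5910 in CY, 1083 in acrolein and 4901 in NAC + CY. Both CY-dosed hearts were far above the others, with log2 ratios of 2.60 (Z-score 5.15) and 2.33 (Z-score 5.60), while acrolein gave 0.15. Wee1, the kinase that inhibits Cdk1, read 95.0 in NS, 384 in CY, 75.9 in acrolein and 410 in NAC + CY, with log2 ratios of 2.02 and 2.11. Gadd45g, a stress-induced growth arrest gene, was called higher in both at 0.79 and 0.84. These were the 3 called of 21 tested in each of the 2 comparisons, none was called lower, where 3.38% and 2.68% of all tested genes were called higher, and the list median was 0.26 after CY and 0.18 after NAC + CY. Another target of p53, Ccng1 or cyclin G1, did not follow Cdkn1a. It read 11557 in NS, 8025 in CY, 11814 in acrolein and 10122 in NAC + CY, a log2 ratio of -0.53 in CY (Z-score -1.31). Gadd45a, a paralogue of Gadd45g that p53 also induces, read 440, 220, 505 and 255 in the same order, with a Z-score of -1.79 in CY and a log2 ratio of -0.78 in NAC + CY, and was not called.

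The 3 other lists held few calls, to be read against the shares of all tested genes given above. Of 34 further replication genes tested after CY, 1 was called lower and none higher. This was Pola1, the catalytic subunit of DNA polymerase alpha, at 259 in NS, 85.7 in CY, 214 in acrolein and 121 in NAC + CY, a log2 ratio of -1.59 (Z-score -3.05). Timeless, of the fork protection complex, was called higher in NAC + CY than in CY at 0.78, with 500, 284, 609 and 487 in the order NS, CY, acrolein and NAC + CY. Of 19 further cyclins, kinases and transcription factors, Myc was called higher after CY at 1.77, and Cks1b, a subunit that binds Cdk1, was called lower after NAC + CY at -1.07.

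Of 27 further mitosis genes tested after CY, 1 was called higher, Ckap2, a spindle protein. Ckap2 read 138 in CY and 166 in NAC + CY and was not well above background at 14.9 in NS and 8.92 in acrolein, so that it was at least 8.35-fold and at least 10.1-fold higher than in NS. Cenpa, the centromeric histone, read 1067 in NS, 523 in CY, 1084 in acrolein and 426 in NAC + CY and was called lower in NAC + CY at -1.33 (Z-score -3.30). Smc2, of condensin, was called lower after acrolein at -0.64, the 1 call of 99 genes of the 4 lists tested there.

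**Figure D4:**
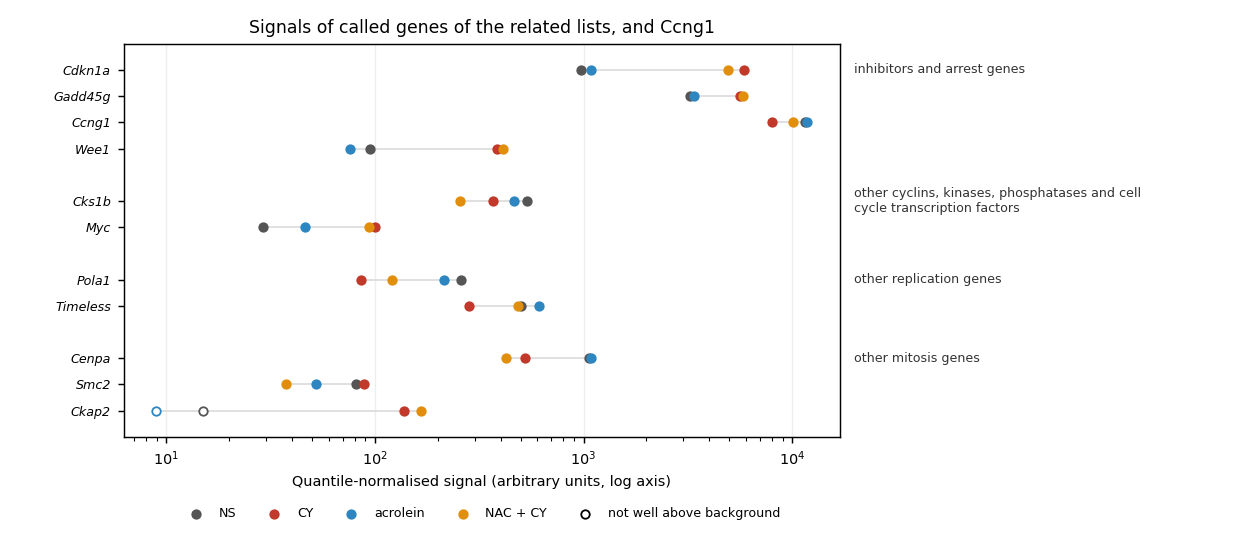
Quantile-normalised signal (horizontal log axis, arbitrary units) of the genes of the related lists called in at least 1 comparison, and of Ccng1, with 1 point per array and open points where the spot was not well above background. Cdkn1a, Wee1, Gadd45g, Myc and Ckap2 are higher in both CY-dosed hearts than in the other 2.

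Markers of other cells differed between the same arrays. Counts of markers called, here and below, are to be read against the shares of all tested genes given above. Of the 10 T and NK cell markers, 6 were well above background in NS, 3 in CY, 7 in acrolein and 3 in NAC + CY, with summed signals of 1291, 1064, 1438 and 1042, and Cd8a, Klrb1c and Ncr1 were dim on all 4. Cd3d read 61.1 in NS and 78.0 in acrolein and was not well above background at 12.1 in CY and 11.8 in NAC + CY. Of the 10 markers, dim ones included, 2 read above NS in CY and 1 in NAC + CY. Of the 6 B cell markers, 3, 3, 4 and 1 were well above background, with summed signals of 281, 193, 321 and 169 and with Cd79a and Blk dim on all arrays. Of the 8 red cell markers, 6, 5, 5 and 5 were well above background, with summed signals of 184554, 188276, 144112 and 90524. Their log2 ratios to NS ran from -2.67 to 0.43 in CY and from -3.39 to 0.57 in NAC + CY. Among them Alas2, of haem synthesis, read 806, 685, 594 and 269 and was called lower in NAC + CY than in NS and in CY. Of 6 red cell markers tested against NS, 1 was called lower in CY, 1 in acrolein and 4 in NAC + CY. Of 5 tested in NAC + CY against CY, 3 were called lower. Slc4a1, of the red cell membrane, was well above background at 35.4 in NS only. All 6 hepatocyte markers were called higher in NAC + CY than in NS, with summed signals of 1239, 1156, 1096 and 10971. The 6 mesothelial markers summed to 2048, 6419, 962 and 1878, and the 5 atrial muscle markers to 304565, 796958, 380170 and 488066. All 6 mesothelial markers were called higher in CY and lower in acrolein than in NS, and lower in NAC + CY than in CY. Of the atrial markers, 5 were called higher than in NS in CY and 4 in NAC + CY. Of the platelet markers, 5 were called higher in CY than in NS and 5 lower in NAC + CY than in CY. The 6 platelet markers summed to 2837, 7140, 2773 and 2035, and the 9 markers of neutrophils and their precursors to 1202, 2159, 3787 and 4612, with 2 of the latter called higher than in NS in CY, 2 in acrolein and 3 in NAC + CY. S100a8 read 56.2, 221, 435 and 714, while Mpo, Prtn3, Ngp and Ltf were dim on all 4 arrays.

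The cells that make up the heart wall also read differently. Of the 8 ventricular muscle markers, 1 was called lower than in NS in each CY-dosed heart, at log2 ratios of -1.30 and -1.08. None was called higher, and the list medians were -0.12 in CY and -0.07 in NAC + CY. All 8 endothelial markers were well above background on every array, and the list median was -0.21 in CY, -0.07 in acrolein and -0.29 in NAC + CY against NS. Kdr, the receptor for VEGF on endothelium, was the 1 endothelial marker called, lower in both CY-dosed hearts at 3229, 851, 2836 and 1139. Of the 8, 3 read above NS in each CY-dosed heart, with log2 ratios up to 0.59 in CY and 0.23 in NAC + CY. All 8 fibroblast markers were well above background too, with medians of 0.05, -0.08 and -0.53 against NS. None of them was called in CY or acrolein against NS, while 3 were called lower in NAC + CY than in NS and 5 lower than in CY. The 8 fibroblast markers summed to 61011, 89628, 61295 and 64091, and their log2 ratios to NS reached 0.74 in CY and 0.36 in NAC + CY. Col3a1, a fibrillar collagen with the lowest ratio of the 8 in each comparison with NS, read 5052, 4247, 4033 and 1276. Of 8 mural cell markers, 3 were called lower than in NS in each CY-dosed heart and 1 higher in CY, with medians of -0.63 and -0.60. Of 9 macrophage markers, 4 were called lower in NAC + CY than in CY, at a median of -0.66. Of 6 fat markers, 5 were called lower in acrolein than in NS, at a median of -1.94, and 1 read above 0, at 0.07. In NAC + CY, 4 were called higher than in NS, at a median of 1.40. The 6 fat markers summed to 53777, 60368, 53011 and 70164. The part of these differences in the members' values was not tested.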

How the data were processed

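The deposited files of each array hold background-subtracted fluorescence intensity per spot, with the error of the spot, which the authors extracted with Agilent Feature Extraction (9.5.1.1 in the submitters' notes, 10.7.1.1 in the file headers). Probe positions are on mm9. The authors' value table holds linear intensities of the same arrays with a median of 13.9 in every column. Here, the 59305 spots that are not controls were quantile-normalised on the log2 scale over the 4 arrays, then averaged where a probe had several. After the study's methods, probes with a P flag on at least 1 of the 2 arrays were tested by an intensity-based Z-score (window of 200 probes) and a ratio. Each gene was read by its brightest probe that carried a P flag on any array, or else its brightest probe. The members and lists were chosen with earlier results of these data known. Signals were given for members called in any comparison and for 8 fixed genes (Mki67, Top2a, Cdk1, Ccnb1, Pcna, Mcm2, Rrm2 and Ccnd1), with other members by example, and up to 4 called genes of each related list were named, with Cdkn1a and Ccng1 always. A probe not well above background on 1 array gives a bound against the higher of its own signal and the lowest signal well above background there. The bound leaves out the spot error. Calling was checked on simulated data with the noise of the acrolein and NS arrays and changes placed in probes above the median signal. That check does not cover dim probes or the wider spread of the CY comparisons. Alternatives covered normalization, background, filters, floors, the Z-score, the ratio, the value table and the probe. Python 3.11.15, numpy 2.4.6, pandas 2.3.3 and matplotlib 3.10.9 were used. R 4.3.3 with limma 3.58.1 gave the normexp correction, at an offset of 50. Of the red cell markers, only Alas2 and Slc4a1 are named.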

Additional observations from a re-analysis of the deposited data

How the results depend on the processing

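No paired analysis was possible because each condition has 1 array, and for the same reason no array could be left out. After CY, the count of members called was 1, and it was 0 with normexp, with a Z-score of 3 and with 1 floor for all arrays (added after the data were seen), 4 with the median and MAD (Kif20a and Ccna2 lower, Cenpf and Cdc20 higher) and 9 by the ratio alone. After acrolein it was 0, and 1 (Anln) by the ratio alone. For NAC + CY against NS it was 1, and 0 with normexp, with windows of 100 and 500 probes and with a Z-score of 3, 2 with 75th percentile scaling (Cenpf added) and with a P flag on both arrays (Ccnb2 added), 4 with the median and MAD and 9 by the ratio alone. For NAC + CY against CY it was 1, and 0 with 75th percentile scaling, normexp, a window of 500 and a Z-score of 3, 2 with a window of 100, 5 with the median and MAD and 7 by the ratio alone, and with a floor on each array the 1 member called was Prc1, lower. The median log2 ratio moved with a floor on each array to -0.16 after CY, -0.12 after acrolein, -0.40 for NAC + CY against NS and -0.0475 against CY; the 4 floors differ, which by construction shifts the ratio of dim genes. Against NS the NAC + CY median was -0.28 with 75th percentile scaling, -0.082 with normexp and 0 with 1 floor, and against CY it was -0.073 with normexp, -0.12 with a P flag on both arrays and 0 with 1 floor. The offset of normexp and the 1 floor likewise shrink the ratios of dim genes by construction. No other cause was tested. The value table and the choice among a gene's probes changed no count of members called. The call of Ube2c was lost under 4 of 15 alternatives, and the calls of Kif20a under 3 and 5. Cdkn1a and Wee1 stayed called higher in both CY-dosed hearts under all 13 alternatives run for them, and Gadd45g lost its calls under 2 of 13 in each comparison, Smc2 under 3, Timeless under 2, and Myc, Ckap2 and Cks1b under 1. The 10 members present on no array are limited by signal over background.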
